A study of Mus musculus with 10 samples.

Results

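The integrated stress response (ISR) is followed here through 10 mouse genes, Atf4, Atf5, Atf3, Ddit3, Ddit4, Trib3, Asns, Chac1, Sesn2 and Ppp1r15a, chosen by name as the rows whose Ensembl gene carries one of these symbols. They are 10 of the 41388 genes listed in each file, and all 10 passed the filter on low counts that left 13444 genes for testing. Liver RNA of male C57B/6J littermates at 12 weeks of age was sequenced, with 1 library per mouse and 10 mice in all. The 3 groups were WT Fasting (n = 3, no food for 24 h), NAMPT LKO Fasting (n = 5, no food for 24 h) and WT Fed (n = 2, 22 h without food and then 2 h of refeeding, by the labels, whereas the text of the study describes a shorter fast and random-fed controls). All fasts were on aspen bedding. WT mice were Nampt fl/fl, with both alleles floxed and intact. NAMPT LKO mice also carried Albumin-cre, which is active in hepatocytes, so that effects of Cre and of the loss of Nampt cannot be told apart, and the other cells of the liver kept the gene. Whole liver was used, so that fewer cells of a type and less RNA per cell cannot be told apart.

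In the ISR, kinases that sense amino acid shortage, unfolded protein in the endoplasmic reticulum (ER), haem shortage or double-stranded RNA phosphorylate the translation factor eIF2. General translation then slows while the mRNA of the transcription factor ATF4 is translated more, so ATF4 is regulated largely at the level of its protein, which RNA-seq does not measure. ATF4 acts with C/EBP proteins and other bZIP factors on genes for amino acid supply, on stress regulators such as CHOP (Ddit3), and on Ppp1r15a, whose product brings a phosphatase back to eIF2. Several of these genes are also under other control in liver, where fasting, glucocorticoids and insulin act on Ddit4, Sesn2 and Trib3.

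The promoter windows of the members are shown because 4 of them hold the sequence through which ATF4 is best known to act. The windows are those of RefSeq (GRCm38.p6, 250 bases before to 50 after a start site) and were found for all 10 members, in 11 windows. The ATF4 and C/EBP composite element was searched as TGATGNAA on both strands, and 3.97% of the 32851 mouse windows hold it. It was present in 4 of the 11 member windows, those of Atf3, Chac1, Asns and Trib3. The cAMP response element TGACGTCA, which reads the same on both strands and does not overlap these matches, was present in 1.79% of all windows and in that of Ppp1r15a. In the lines that follow, read 5′ to 3′ on the strand of the gene, capitals mark a match, and the stretches of Asns and Trib3 are cut to the bases around it. The stretches of Ddit4, Sesn2 and Ddit3, shown because these genes had the largest differences of mRNA between groups, hold neither motif in their windows. Bases outside the windows were not searched, so a motif farther from the start would not be seen. A match is a description of these letters and says nothing of binding in these livers.
Atf3 chr1:191183384-191183483, minus strand: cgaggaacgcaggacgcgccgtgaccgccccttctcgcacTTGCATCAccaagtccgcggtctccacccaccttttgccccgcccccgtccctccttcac
Chac1 chr2:119350992-119351091, plus strand: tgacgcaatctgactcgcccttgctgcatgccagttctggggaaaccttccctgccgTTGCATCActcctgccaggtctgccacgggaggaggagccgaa
Asns chr6:7693214-7693243, minus strand: tcccagccacaTGATGAAActtcccgcacg
Trib3 chr2:152344031-152344055, minus strand: agctcaggtTTACATCAgccgggcg
Ppp1r15a chr7:45526269-45526368, minus strand: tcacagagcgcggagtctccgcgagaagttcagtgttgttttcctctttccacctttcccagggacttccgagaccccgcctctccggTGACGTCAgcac
Ddit4 chr10:59951771-59951870, minus strand: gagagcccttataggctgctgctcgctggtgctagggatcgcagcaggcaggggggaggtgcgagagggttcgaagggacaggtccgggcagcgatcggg
Sesn2 chr4:132510502-132510601, minus strand: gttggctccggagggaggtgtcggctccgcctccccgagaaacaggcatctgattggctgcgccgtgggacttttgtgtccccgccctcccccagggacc
Ddit3 chr10:127290674-127290773, plus strand: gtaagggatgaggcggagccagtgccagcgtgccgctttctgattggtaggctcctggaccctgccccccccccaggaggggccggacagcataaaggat

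Total counts lay between 30603080 and 43434139 per library. Values are given as CPM after TMM normalization (reads of a gene relative to the scaled library total) unless RPKM is named. RPKM is the deposited value, which divides by the exonic length and the total count of the library and is not TMM-scaled. A gene was called where edgeR's quasi-likelihood test, fitted to all 10 libraries, gave a Benjamini-Hochberg adjusted p of at most 0.05 over the 13444 genes. The targeted gene Nampt was at 63.0, 73.4 and 141 CPM in the WT Fasting livers and at 11.8 to 15.3 CPM in the NAMPT LKO Fasting livers, so the labels hold. The hepatocyte markers summed to 67405 to 115811 CPM per library. NAMPT LKO Fasting mouse 5 stood apart, with a TMM factor of 0.854 (0.964 to 1.05 elsewhere), 21.1% of its reads from mitochondrial genes (7.42 to 12.9% elsewhere) and a median deviation from the other mice of its group of 0.33 on the log2 scale in the fifth of genes with the lowest GC content and of -0.51 in the fifth with the highest. WT Fasting mouse 3 had the highest summed level of 7 Kupffer cell markers, 462 CPM against 232 and 233 in the other WT Fasting livers, 178 to 223 in WT Fed and 159 to 358 in NAMPT LKO Fasting livers, and none of these markers was at 0. The part of either feature in the results was not tested.

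The members covered a wide range of mRNA levels. Per length, Atf5, which encodes a bZIP factor related to ATF4 and abundant in liver, was highest in each group, with a mean of 268 RPKM in WT Fed, 291 in WT Fasting and 284 in NAMPT LKO Fasting livers. Atf4 came next with 63.1, 50.4 and 44.2 RPKM, and no library of a group had Atf4 above Atf5. In WT Fed livers Ddit3 followed at 9.47 RPKM and Ppp1r15a at 3.80 RPKM, and these 4 highest genes did not overlap between libraries, whereas Trib3 (2.42), Ddit4 (2.29) and Sesn2 (1.75) overlapped their neighbours. In WT Fasting livers Ddit4 came next after Atf4 with 12.8 RPKM and Ddit3 stood at rank 7 with 4.08 RPKM, while the libraries of neighbours from Ppp1r15a (5.94) through Sesn2 (5.75) and Trib3 (5.02) to Ddit3 overlapped. In NAMPT LKO Fasting livers Ddit4 was at 5.71 RPKM, and neighbours in the order from Ppp1r15a (5.86) through Ddit4, Sesn2 (5.07) and Trib3 (4.01) to Ddit3 (3.59) overlapped. Atf3, Chac1 and Asns were lowest in all 3 groups, at 0.21 to 1.13 RPKM on average, with 12 to 124 reads per library, and their differences are therefore the least precise.

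**Figure D1:**
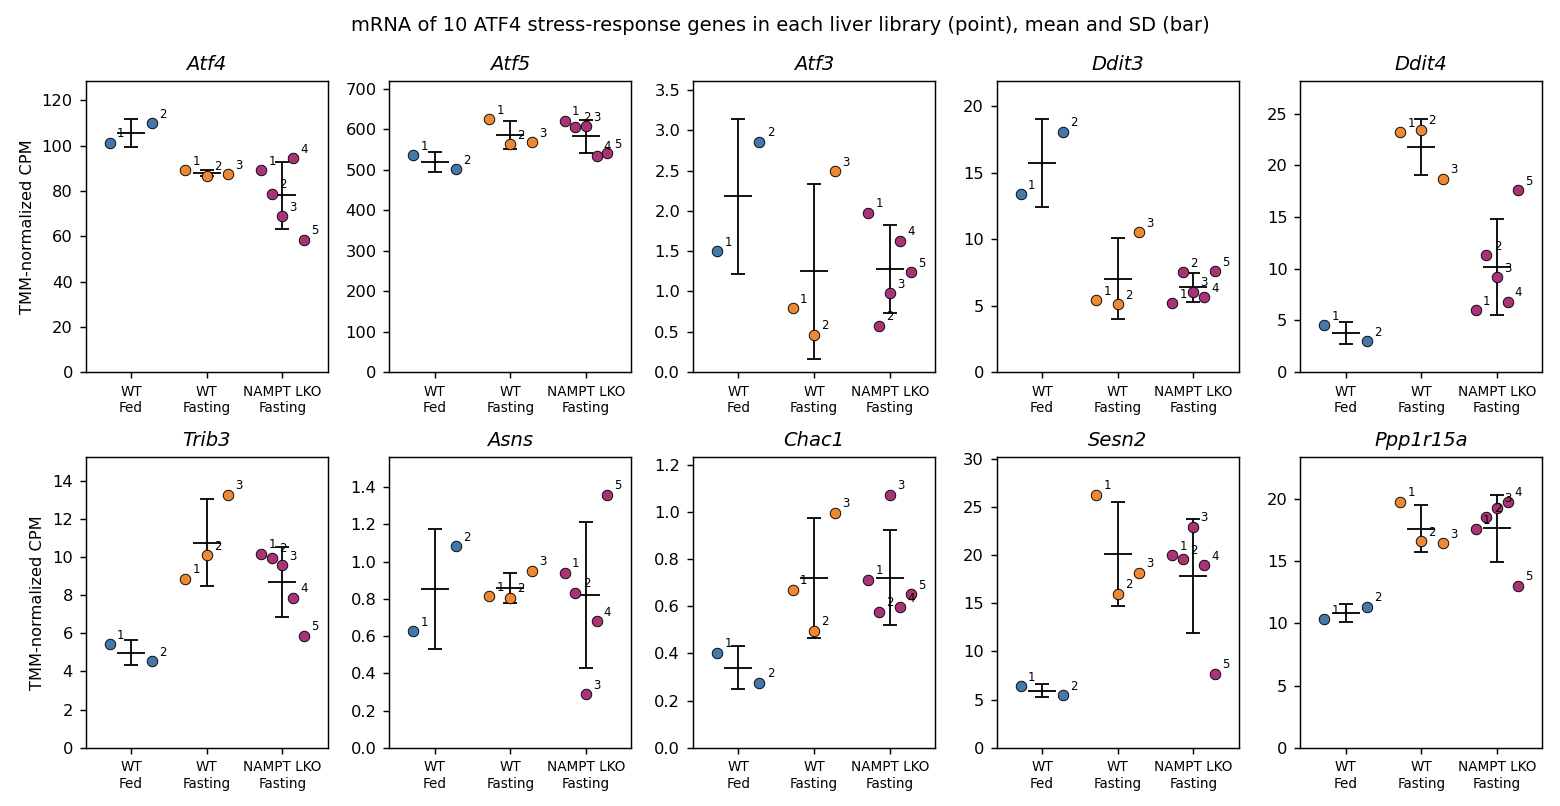
TMM-normalized CPM (vertical axis, from 0) of the 10 members in each liver library, with mouse numbers beside the points and bars for the group mean and SD (n = 5 NAMPT LKO Fasting, 3 WT Fasting and 2 WT Fed). Ddit4 of the 5 NAMPT LKO Fasting livers lies below the 3 WT Fasting livers and above the 2 WT Fed livers, and NAMPT LKO mouse 5 is lowest of its group for Sesn2, Trib3, Ppp1r15a and Atf4.

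The first comparison, WT Fasting against WT Fed, sets livers after 24 h without food against livers refed for 2 h after 22 h. Nampt was intact in both, and effects of the fast and of the refeeding cannot be told apart. Of the 10 members 5 were called, of which 4 were higher in WT Fasting livers (Ddit4, Sesn2, Trib3 and Ppp1r15a) and 1 was lower (Ddit3). Over all genes tested 7.04% were called, 2.68% as higher and 4.36% as lower. Atf4 itself, Atf5, Atf3, Asns and Chac1 were not called. The median log2 fold change of the members was 0.44, beside 0.04 over all genes.

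Ddit4 encodes REDD1, an inhibitor of the growth kinase complex mTORC1, and lies on the minus strand of chromosome 10 from 59949675 to 59951770 (GRCm38, as are all gene positions given here). It was at 4.5 and 3.0 CPM in the WT Fed livers and at 23.2, 23.5 and 18.7 CPM in the WT Fasting livers. Each fasted liver was thus well above both refed livers. The log2 fold change was 2.54 ± 0.43 (SE), or 5.80-fold, and the quasi-likelihood test of edgeR gave an adjusted p of 0.00674. Sesn2 encodes Sestrin 2, a leucine-responsive inhibitor of mTORC1 (minus strand of chromosome 4, 132492032 to 132510501). Its level was 6.39 and 5.44 CPM in WT Fed and 26.3, 16 and 18.1 CPM in WT Fasting livers, again without overlap, a log2 fold change of 1.77 ± 0.39 (SE, adjusted p = 0.0225 in the same edgeR fit). Both of these members, whose products hold back mTORC1, were thus higher in the fasted livers. Their relatives Sesn1 (log2 fold change 0.13), Sesn3 (-0.07) and Ddit4l (-0.55), named after their values were seen, were not called.

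Trib3 encodes a pseudokinase that binds AKT and ATF4 (minus strand of chromosome 2, 152337422 to 152344032). It was at 5.45 and 4.54 CPM in WT Fed and at 8.86, 10.1 and 13.3 CPM in WT Fasting livers. The log2 fold change was 1.11 ± 0.26 (SE, edgeR adjusted p = 0.0273). Ppp1r15a encodes GADD34, the regulatory subunit that directs protein phosphatase 1 to eIF2 (minus strand of chromosome 7, 45522916 to 45526268). Its values were 10.3 and 11.3 CPM in WT Fed and 19.8, 16.6 and 16.4 CPM in WT Fasting livers. The log2 difference was 0.70 ± 0.18 (SE, edgeR adjusted p = 0.0455). The groups did not overlap for either gene.

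Ddit3, which encodes the bZIP factor CHOP that ATF4 induces under lasting ER stress, differed the other way (plus strand of chromosome 10, 127290774 to 127296288). It was at 13.4 and 18.1 CPM in the refed livers and at 5.39, 5.12 and 10.5 CPM in the fasted WT livers. WT Fasting mouse 3 had the highest of the fasted values, still below both refed livers. The log2 fold change was -1.16 ± 0.30 (SE), or 2.24-fold lower, with an edgeR adjusted p of 0.0412, and -1.59 (adjusted p = 0.00503) without WT Fasting mouse 3. Overlaps with other genes were taken from the first to the last base of each gene, introns included, so not all such bases are counted ones. Ddit3 overlaps Mars (at most 48.0 CPM) by 68 bases and Gm4189 (at most 0.27 CPM) by 15 bases. Ppp1r15a overlaps Tulp2 (at most 1.00 CPM) by 717 bases. Atf5 overlaps Il4i1 (at most 2.82 CPM) by 289 bases and ENSMUSG00000043858 (at most 22.9 CPM) by 571 bases. All of these lie on opposite strands, and the sources used here do not state whether counting used strand. Sesn2, with an exonic length of 3475 bases, overlaps Gm12981 (at most 0.26 CPM) by 6089 bases on the same strand.

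No difference was called for the regulators Atf4, Atf5 and Atf3. Atf4 (plus strand of chromosome 15, 80255184 to 80257540) was at 101 and 110 CPM in WT Fed and at 89.2, 86.7 and 87.4 CPM in WT Fasting livers. Every fasted value lay below the refed ones, but the log2 fold change of -0.27 ± 0.18 (SE) did not pass (edgeR adjusted p = 0.416). Atf5 (minus strand of chromosome 7, 44812257 to 44816658) was at 536 and 501 CPM in WT Fed and at 625, 563 and 567 CPM in WT Fasting livers, a log2 difference of 0.17 ± 0.12 (SE, edgeR adjusted p = 0.447). Atf3, a stress-induced bZIP repressor (minus strand of chromosome 1, 191170296 to 191183340), was at 1.5 and 2.86 CPM in WT Fed and at 0.79, 0.47 and 2.49 CPM in WT Fasting livers, so that mouse 3 overlapped the refed livers and the other fasted mice did not. Its log2 difference was -0.78 ± 0.65 (SE, edgeR adjusted p = 0.517), and -1.79 without WT Fasting mouse 3.

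Of the enzymes, Asns, which makes asparagine (minus strand of chromosome 6, 7675169 to 7693254), was at 0.63 and 1.08 CPM in WT Fed and at 0.81, 0.81 and 0.95 CPM in WT Fasting livers. The ranges overlapped and the log2 difference was 0.01 ± 0.53 (SE). Chac1, which degrades glutathione (plus strand of chromosome 2, 119351229 to 119354381), was at 0.40 and 0.28 CPM in WT Fed and at 0.67, 0.50 and 1.00 CPM in WT Fasting livers, a log2 difference of 1.09 ± 0.47 (SE) that was not called (edgeR adjusted p = 0.205). Asns and Chac1, both with the composite element in their windows, had 12 to 47 reads per library. By CPM before TMM, Chac1 passed the filter only through WT Fasting mouse 3 (44 reads) and NAMPT LKO Fasting mouse 3 (45 reads). Both are fasted livers, where Chac1 was higher, so its difference from WT Fed livers is no independent evidence.

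Over all members, 6 lay wholly higher and 2 wholly lower in the WT Fasting than in the WT Fed livers. Among the 6 is Chac1, which passed the filter only through fasted livers. With so few mice such separation was common, at 24.5% of all genes tested for higher and 25.1% for lower. The calls leaned on the 2 refed livers. Without WT Fed mouse 1 or 2 none of the 5 calls remained, with the adjusted p of Ddit4 at 0.0507 and 0.101, that of Sesn2 at 0.141 and 0.225, that of Trib3 at 0.133 and 0.266, that of Ppp1r15a at 0.290 and 0.235 and that of Ddit3 at 0.109 and 0.327. Ddit4 remained called without any single fasted mouse, Sesn2 without any but WT Fasting mouse 1 (adjusted p = 0.0678), and Trib3 without any but WT Fasting mouse 2 (0.0635) or 3 (0.0698). Ddit3 was not called without WT Fasting mouse 1 (0.117) or 2 (0.122) or without NAMPT LKO mouse 1 (0.0525), 2 (0.0576), 3 (0.0584) or 4 (0.0556), which enter through the shared estimate of spread. Ppp1r15a was called without NAMPT LKO mouse 5 (0.00346) but not without any other fasted mouse (0.0549 to 0.134). Among the other processing settings, Trib3 was not called by library size alone (0.0674), Ppp1r15a by library size alone (0.136), with filterByExpr (0.0579) or with no filter (0.0625), and Ddit3 with only the 2 groups compared (0.0797). The direction of all 5 was kept in these fits.

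**Figure D2:**
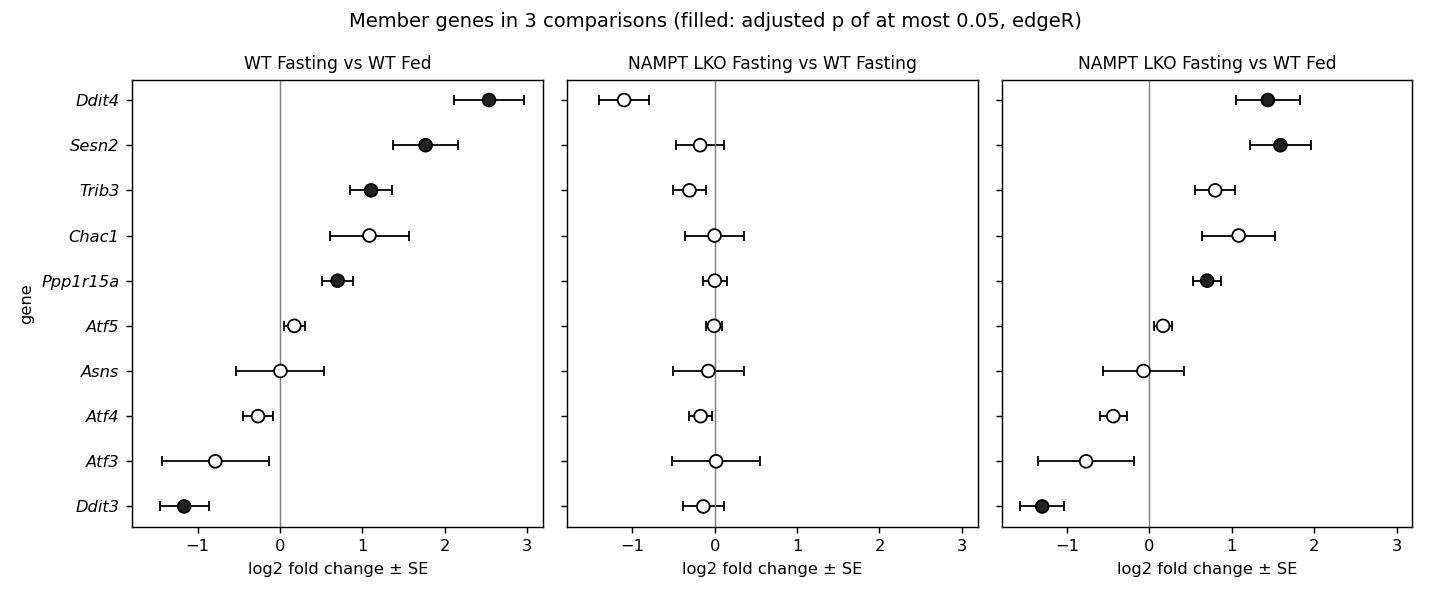
Log2 fold change (horizontal axis) with its SE for the 10 members in the 3 comparisons, from edgeR's fit of all 10 libraries, with filled points where the adjusted p was at most 0.05. In WT Fasting vs WT Fed 5 points are filled, in NAMPT LKO Fasting vs WT Fasting 0, and in NAMPT LKO Fasting vs WT Fed 4.

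The second comparison, NAMPT LKO Fasting against WT Fasting, asks whether these genes differ once hepatocytes lack Nampt, the rate-limiting enzyme of NAD salvage. None of the 10 members was called by edgeR's quasi-likelihood test, nor by the exact test, DESeq2 or voomWithQualityWeights. At an unadjusted p under 0.05 there was 1 member, Ddit4, beside 6.03% of all genes. Over all genes 0.00744% were called, which is the single gene Nampt itself as lower and 0% as higher. The median log2 fold change of the members was -0.11, beside 0.00 over all genes.

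Ddit4 was the member with the largest difference. It was at 6.00, 11.3, 9.16, 6.79 and 17.6 CPM in the NAMPT LKO Fasting livers and at 23.2, 23.5 and 18.7 CPM in the WT Fasting livers. The groups did not overlap, and the highest NAMPT LKO value was that of mouse 5. Ddit4 was the only member whose groups did not overlap here, where 2.12% of all genes were wholly lower in NAMPT LKO Fasting livers. Its log2 fold change was -1.10 ± 0.30 (SE), or 2.14-fold lower, with an unadjusted p of 0.00389, the 60th smallest of 13444, and an edgeR adjusted p of 0.761. Without NAMPT LKO mouse 5 it was -1.39 (adjusted p = 0.284), and over all alternatives it lay between -1.49 and -0.96, with adjusted p from 0.0836 in voomWithQualityWeights to 0.99. The difference therefore kept its direction and was not called in any fit.

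The other members differed little between the genotypes. Sesn2 was at 19.97, 19.5, 22.9, 18.9 and 7.69 CPM in NAMPT LKO Fasting livers, and only mouse 5 lay below the WT Fasting range of 16 to 26.3 CPM. Its log2 difference was -0.18 ± 0.29 (SE), and 0.01 without that mouse. Trib3 was at 10.2, 9.97, 9.59, 7.87 and 5.88 CPM, a log2 difference of -0.31 ± 0.20 (SE, edgeR adjusted p = 0.839), which was -0.20 without mouse 5 and -0.12 without WT Fasting mouse 3. Ppp1r15a was at 17.5, 18.5, 19.3, 19.8 and 13.0 CPM, with a group mean of 17.6 CPM in both genotypes and a log2 difference of 0.00 ± 0.14 (SE). For all 3 genes NAMPT LKO mouse 5 was the lowest of its group.

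Atf4 was at 89.2, 78.8, 68.9, 94.5 and 58.5 CPM in the NAMPT LKO Fasting livers, where mouse 5 was again lowest, and the log2 difference from WT Fasting livers was -0.17 ± 0.14 (SE, edgeR adjusted p = 0.854), and -0.08 without mouse 5. Atf5 lay between 535 and 621 CPM (-0.01 ± 0.10, SE). Ddit3 was at 5.19, 7.5, 6.06, 5.65 and 7.57 CPM (-0.14 ± 0.25, SE), and the sign of this small difference depended on WT Fasting mouse 3, without which it was 0.28. Atf3 was at 0.58 to 1.98 CPM, Asns at 0.29 to 1.36 CPM and Chac1 at 0.58 to 1.07 CPM, each overlapping the WT Fasting livers, with log2 differences of 0.02 ± 0.54, -0.08 ± 0.43 and -0.00 ± 0.35 (SE). The SE of these 3 genes leave room for a change of some size in either direction.

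The same test was also tried on simulated counts with this number of libraries. With 200 of 13444 genes changed, the quasi-likelihood test recovered 62% of those with a log2 fold change of 1 and 94% of those with 2, with 7 unchanged genes called. For WT Fasting against WT Fed these shares were 43% and 89%, with 6 unchanged genes called. The counts were drawn independently for each gene, so the shared deviation of NAMPT LKO mouse 5 was not simulated. With 200 changed genes the adjusted threshold is also easier to pass than between the genotypes, where 1 gene was called. These shares therefore do not give the power of the real comparisons. Markers of other cells were described too, and none was called between the genotypes. The 5 bile duct markers summed to 34 to 54.5 CPM in NAMPT LKO Fasting against 15.2 to 22.3 CPM in WT Fasting livers, with Spp1 at an edgeR adjusted p of 0.0603, and the 7 stellate cell markers to 224 to 299 against 181 to 235 CPM. The bile duct sums did not overlap, whereas the stellate sums did. None of these 12 markers was at 0 in any library. Kupffer cell markers summed to 159 to 358 CPM against 232 to 462 CPM, and endothelial markers to 216 to 273 CPM against 229 to 275 CPM. The part of these cells in the members' values was not tested.

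The third comparison, NAMPT LKO Fasting against WT Fed, shares its samples with the other two and is given beside them. Here 4 of the 10 members were called, Ddit4, Sesn2 and Ppp1r15a as higher and Ddit3 as lower, where 11.2% of all genes were called, 4.65% as higher and 6.58% as lower. Wholly higher were 5 members and wholly lower 2, beside 15.7% and 17.8% of all genes. Among the 5 is Chac1, which passed the filter only through fasted livers. The log2 fold changes were 1.44 ± 0.39 (SE) for Ddit4, 1.59 ± 0.37 for Sesn2, 0.70 ± 0.17 for Ppp1r15a and -1.30 ± 0.27 for Ddit3, with edgeR adjusted p of 0.0385, 0.0212, 0.0264 and 0.0115. Trib3 missed the threshold (0.80 ± 0.24, SE, edgeR adjusted p = 0.0557) and passed it without NAMPT LKO mouse 5 (0.91, adjusted p = 0.00845) or without WT Fasting mouse 3 (0.79, adjusted p = 0.0488), as well as in DESeq2 (0.0152), the exact test (0.0312) and voomWithQualityWeights (0.00136). Without NAMPT LKO mouse 5 the log2 fold change of Ddit4 was 1.149 (adjusted p = 0.0149). Atf4 was at -0.44 ± 0.16 (SE, edgeR adjusted p = 0.110), with all 5 NAMPT LKO livers below both refed livers. Without WT Fed mouse 1 only Ddit3 remained called (adjusted p = 0.0479) and without WT Fed mouse 2 no member did. The call of Ddit4 was also lost without NAMPT LKO mouse 2 (0.0725) or 3 (0.0594) or WT Fasting mouse 1 (0.0531) or 2 (0.0566), and with only the 2 groups compared (0.0693). That of Ppp1r15a was lost without NAMPT LKO mouse 2 (0.0612) or 3 (0.0573) and by library size alone (0.0945). By voomWithQualityWeights Atf4 (0.012) and Chac1 (0.0434) were called as well, and for Chac1 the limit of the filter named above holds here too.

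**Figure D3:**
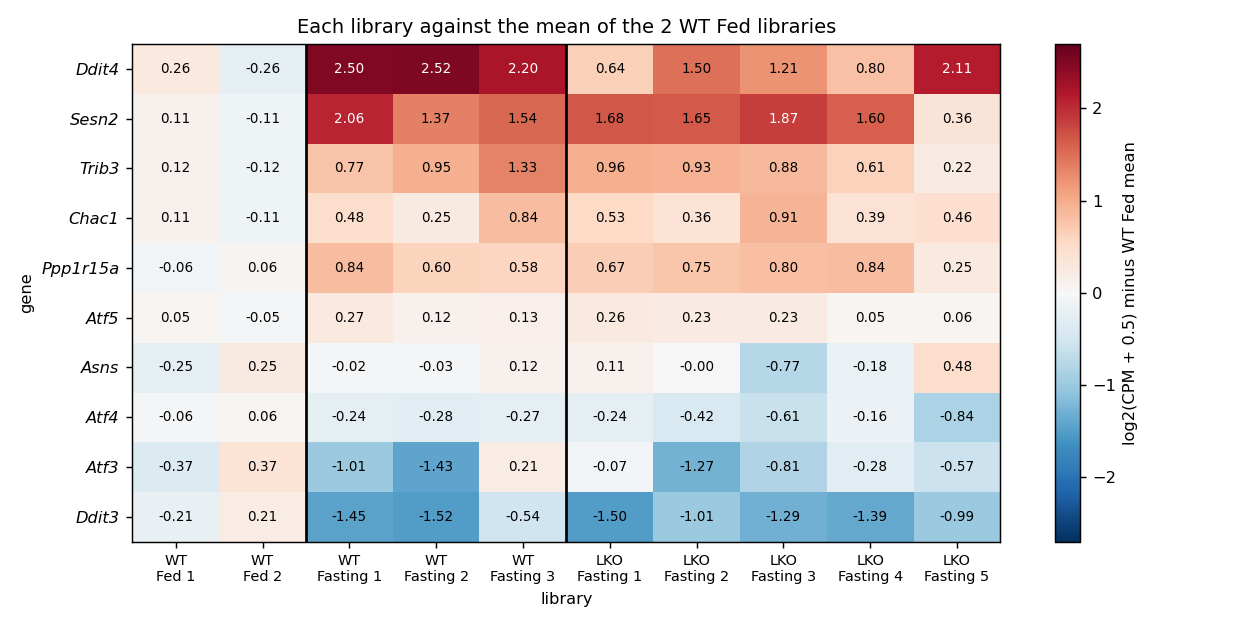
Colour and number give log2(CPM + 0.5) of each member (rows) in each library (columns) minus the mean of the 2 WT Fed libraries. Ddit4 is 2.20 to 2.52 above that mean in the WT Fasting livers and 0.64 to 2.11 above it in the NAMPT LKO Fasting livers, whereas Ddit3 is below it in all 8 fasted livers.

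The ISR has other genes around these members, and they were described by lists. Their calls in WT Fasting against WT Fed stand beside 2.68% called higher and 4.36% called lower over all genes tested. Of 13 genes for the eIF2 kinases, eIF2, its exchange factor eIF2B and the constitutive phosphatase subunit, 4 were called in WT Fasting against WT Fed, all lower: the ER-stress kinase PERK (Eif2ak3, log2 fold change -0.86), the alpha subunit of eIF2 (Eif2s1, -0.65) and the eIF2B subunits Eif2b3 (-0.71) and Eif2b4 (-0.77). The edgeR adjusted p of these 4 lay between 0.00402 and 0.0281. The list's median was -0.33, and none was called between the genotypes, where the median was 0.00. Of 10 bZIP factors that can pair with ATF4 or bind beside it, 2 were called, both higher in WT Fasting livers: Cebpb (1.48, adjusted p = 0.0168) and Cebpd (2.03, adjusted p = 0.000733), which encode C/EBP proteins induced by glucocorticoids. In NAMPT LKO Fasting against WT Fasting livers their log2 differences were -0.46 and -0.43 (edgeR adjusted p of 0.837 and 0.798). NAMPT LKO mouse 5 was lowest for both. It was at 71.2 CPM for Cebpb (126 to 173 in the other mice of its group) and at 16.8 CPM for Cebpd (22.1 to 27.7).

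Further targets of ATF4 were gathered in 4 lists of 50 genes, of which 44 were tested. In WT Fasting against WT Fed livers 3 were called higher and 3 lower, beside 2.68% and 4.36% of all genes. The median log2 fold change was -0.01, and 0.04 over all genes. The amino acid transporter gene Slc38a2 was at 62.9 and 52.9 CPM in WT Fed and at 156, 128 and 159 CPM in WT Fasting livers (1.35 ± 0.15, SE, edgeR adjusted p = 0.000984). It was at 99.2 to 127 CPM in the NAMPT LKO Fasting livers, all below the WT Fasting ones, a log2 difference of -0.38 ± 0.12 (SE, edgeR adjusted p = 0.761) that was not called. The autophagy gene Map1lc3b was higher in WT Fasting livers by 0.66 on the log2 scale (edgeR adjusted p = 0.018). Fgf21, the hepatokine that the study turns on and also a gene of PPARA and ATF4, was at 1.25 and 0.46 CPM in WT Fed, 7.5, 3.72 and 8.32 CPM in WT Fasting and 5.43 to 14.0 CPM in NAMPT LKO Fasting livers. It was called in WT Fasting against WT Fed (2.92 ± 0.53, SE, edgeR adjusted p = 0.00987) and not between the genotypes (0.71 ± 0.37, SE, edgeR adjusted p = 0.837). By quantitative PCR after a longer fast, the study reports a weaker induction of this mRNA in NAMPT LKO mice. The estimate here has the other direction, with a different method and time.

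The lower genes were Psph, the last enzyme of serine synthesis (-0.87, edgeR adjusted p = 0.0414), and the tRNA synthetase genes Iars (-0.70, edgeR adjusted p = 0.0133) and Yars (-0.61, edgeR adjusted p = 0.0174). The tRNA synthetase list of 13 genes also holds the tRNA export gene Xpot (-0.03), which is not a synthetase gene. Of these 13 genes 12, Xpot among them, had a log2 fold change below 0, of which 2 were called. The median was -0.31. For all genes tested the median was 0.04, and 4.36% were called lower. None of the 44 target genes was called between the genotypes. In NAMPT LKO Fasting against WT Fed livers 3 of the 44 were called higher and 7 lower, beside 4.65% and 6.58% of all genes. The median log2 fold change of 12 paralogs of the members was -0.22, and 2 of them were called, both lower in WT Fasting livers: Trib1, a relative of Trib3 (-0.94, edgeR adjusted p = 0.0213), and Atf6b (-1.07, edgeR adjusted p = 0.0127).

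The ER branches of the unfolded protein response were described beside the ISR. Of 19 ER chaperone and related genes downstream of ATF6 and IRE1, 17 were called in WT Fasting against WT Fed livers, all lower, with a median log2 fold change of -1.40. The shares over all genes tested were 4.36% called lower and 2.68% called higher. Canx (-0.45) and Herpud1 (-0.48), named after their values were seen, were not called. The 4 with the largest differences were Derl3 (-4.01), Creld2 (-3.53), Sdf2l1 (-3.05) and Manf (-2.63). Creld2, an ER folding factor, was at 434 and 415 CPM in WT Fed, 27.2, 28 and 55.3 CPM in WT Fasting and 24.3 to 39.9 CPM in NAMPT LKO Fasting livers. Ddit3 and the ER chaperone genes were thus both lower in fasted livers, whereas Ddit4, Sesn2, Trib3 and Ppp1r15a were higher. None of the 19 was called between the genotypes. Of 13 immediate early genes, which respond to handling and to hormones, 11 were tested and 2 were called, both higher in WT Fasting livers: Dusp1 (1.54, edgeR adjusted p = 0.00704) and Zfp36 (0.83, edgeR adjusted p = 0.0436).

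Of the 20 genes named from these lists, 7 remained called without WT Fed mouse 1 (Cebpd, Creld2, Eif2b4, Fgf21, Manf, Sdf2l1 and Slc38a2), and 5 of these, without Eif2b4 and Fgf21, remained called without WT Fed mouse 2. Between 12 and 20 remained called without any single fasted mouse. Of the 19 ER genes, 13 were called without WT Fed mouse 1 and 12 without WT Fed mouse 2.

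**Figure D4:**
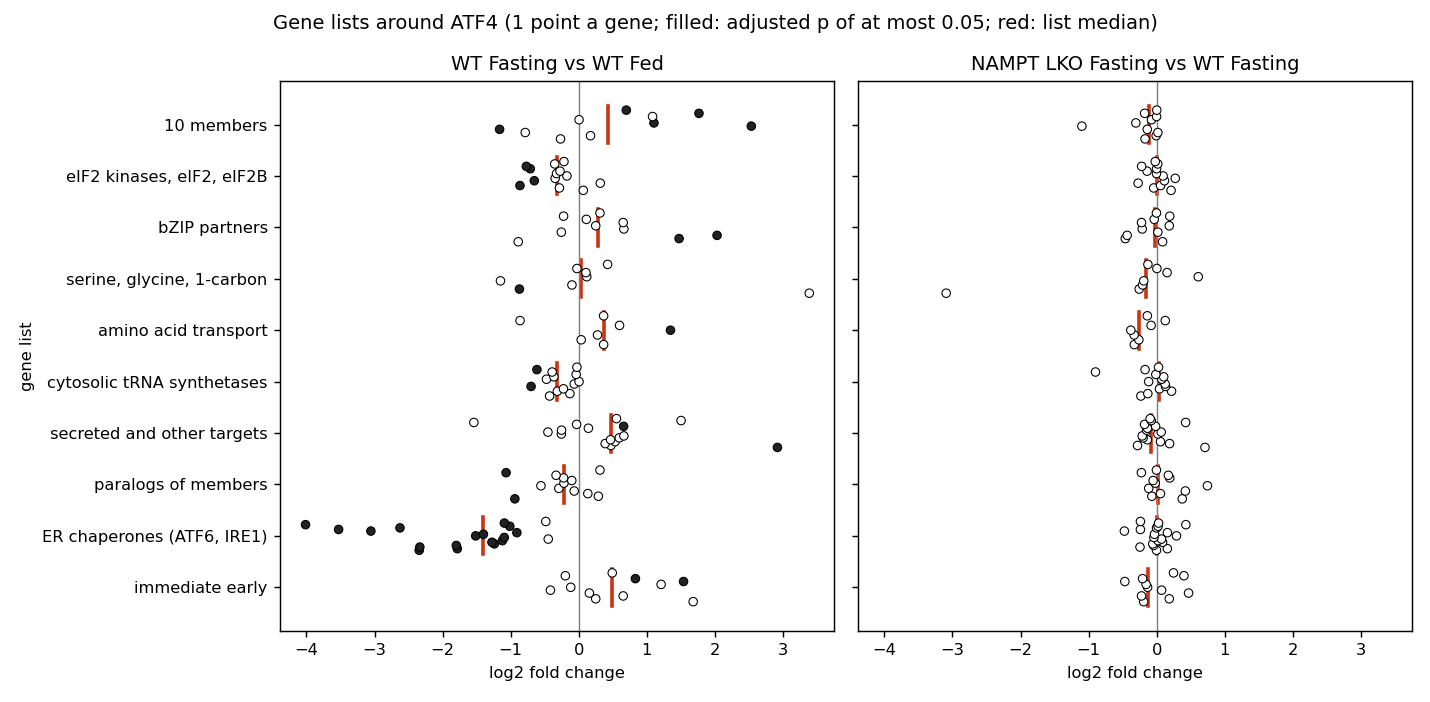
Log2 fold change (horizontal axis, the same scale in both panels) of each tested gene in the members and 9 lists around ATF4, with filled points where the edgeR adjusted p was at most 0.05 and a red bar at the list median. In WT Fasting vs WT Fed the ER chaperone list has its median at -1.40 and the members at 0.44, and in NAMPT LKO Fasting vs WT Fasting no point is filled.

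By likeness over the 10 libraries, measured as the root mean square difference of centred log2(CPM + 0.5), the genes nearest to Atf4 were Rabggta (0.069), Senp3 (0.072) and Commd9 (0.076). Atf4 spanned 0.90 on this scale from its lowest library to its highest. All 3 genes had, like Atf4, their lowest value in NAMPT LKO mouse 5 and their highest in a WT Fed liver. The member with the widest span was Ddit4, at 2.78, and the genes nearest to it were Trp53inp1 (0.45), Ccng2 (0.49) and Mfsd2a (0.49). Trp53inp1 was at 38.6 and 19.6 CPM in WT Fed, 122, 113 and 166 CPM in WT Fasting and 75.5 to 131 CPM in NAMPT LKO Fasting livers. These 3 lay farther from Ddit4 than the nearest genes of Atf4 did from Atf4.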

How the data were processed

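Poly-A RNA of whole liver from 10 mice was sequenced as single reads of 50 bases. Per the labels and the study's methods, the authors aligned reads with STAR to GRCm38 and assigned uniquely mapped, unambiguous reads to genes with featureCounts, giving the deposited raw count per gene. The submitters' processing notes name STAR 2.5.1a and featureCounts 1.4.6-p5. The deposited CPM and RPKM of the authors were checked and equal the counts scaled to the library total and, for RPKM, also to the exonic length.

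Groups were taken from the sample labels. Ensembl genes were paired with symbols by GENCODE for 40254 of 41388 genes. Genes of rRNA were removed, and the 13444 genes that exceeded 1 CPM in 1 or more libraries were kept. TMM normalization and the quasi-likelihood test of edgeR 4.0.16 (R 4.3.3) were fitted to all 10 libraries with no covariate, and p-values were adjusted by Benjamini-Hochberg over all genes tested, with a threshold of 0.05. Alternatives used DESeq2 1.42.0, voomWithQualityWeights of limma 3.58.1, the edgeR exact test, other scalings and filters, the 2 compared groups alone, each library left out, and a replicate block. Scripts were tested on simulated data with 200 changed genes. No pair of libraries within a group agreed within sampling noise. Log scale plots add a pseudocount of 0.5 CPM.

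The members and the lists were chosen with earlier results of these data known, so that no list is independent evidence. All members were named. From each list around ATF4 every gene called in WT Fasting against WT Fed or NAMPT LKO Fasting against WT Fasting was named, or the 4 with the largest absolute log2 fold change where more were called, and Fgf21 and Nampt whatever their values. Genes most like a member were the 3 nearest to Atf4 and to the member with the widest range. Total counts were 30603080 to 41160486 per library in NAMPT LKO Fasting, 33947232 to 43434139 in WT Fasting, and 42170825 and 43218540 in WT Fed livers.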

Additional observations from a re-analysis of the deposited data

Results flagged for a closer look

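In groups of 5 libraries, Dixon's test was applied to 31 genes, the 10 members among them, and about 1 in 20 is passed by chance. The lowest NAMPT LKO Fasting library for Sesn2 was mouse 5 at 7.69 CPM, where the others lay between 18.9 and 22.9 CPM. The same mouse was lowest for the serine synthesis gene Psph, at 2.13 CPM against 3.28 to 3.73 CPM. For Chac1 the highest library was mouse 3 at 1.07 CPM, against 0.58 to 0.71 CPM in the others. Mouse 5 also had the highest mitochondrial share (21.1%), and its deviation from its group differed with GC content. By GC percentile among genes tested, Sesn2 stood at 92.7 (log2 deviation -1.35), Trib3 at 95.9 (-0.63), Atf4 at 77.9 (-0.49) and Ppp1r15a at 76.5 (-0.51). Other GC-rich members did not follow, with Ddit4 at 89.8 (1.08), Chac1 at 87.9 (-0.09) and Atf5 at 99.1 (-0.13). The part of either feature in these values was not tested.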

How the results depend on the processing

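With only 2 WT Fed livers, the counts of calls against that group moved most. The members called in WT Fasting against WT Fed numbered 5, against 3 by library size alone, 4 with filterByExpr, 4 with no filter, 4 with only the 2 groups and 0 to 5 with each library left out, and in NAMPT LKO Fasting against WT Fed 4, against 7 in voomWithQualityWeights, 5 in DESeq2 and in the exact test, 3 by library size alone and with only the 2 groups, and 0 to 5 with each library left out. The other target genes called numbered 6 in WT Fasting against WT Fed, against 12 in DESeq2, 12 with only the 2 groups, 20 in voomWithQualityWeights, 16 without WT Fasting mouse 3 and NAMPT LKO mouse 5 together (an alternative chosen after seeing the data) and 1 to 14 with each library left out. In NAMPT LKO Fasting against WT Fed they numbered 10, against 23 in voomWithQualityWeights, 18 without both mice and 2 to 18 with each left out. Of all genes 946 were called in WT Fasting against WT Fed, against 1646 in DESeq2, 1617 with only the 2 groups, 3331 in voomWithQualityWeights, 2284 without both mice and 107 to 2235 with each left out. In NAMPT LKO Fasting against WT Fed 1510 were called, against 4281 in voomWithQualityWeights, 3328 without both mice and 226 to 2835 with each left out. By library size alone 252 of 979 calls were higher in WT Fasting than in WT Fed (360 of 946 with TMM), and 371 of 1422 in NAMPT LKO Fasting (625 of 1510 with TMM). Between the genotypes 1 gene was called, against 21 in DESeq2, 24 in the exact test, 3 with filterByExpr, 2 by library size alone, 17 with no filter, and 1 to 2 with each left out. With libraries 1 to 3 of both genotypes, 0 genes were called with a replicate block and 0 without it. After removal of the group means, same-numbered libraries correlated at 0.115, 0.064 and 0.127. The other pairs among libraries 1 to 3 lay between -0.188 and 0.006, and pairs with NAMPT LKO mice 4 and 5 between -0.152 and 0.131. These values do not decide whether the replicate numbers pair the mice, and the labels do not say so. The block called no member.

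Signs turned only for log2 differences that were not called. In WT Fasting against WT Fed, Asns (0.01) was at -0.0013 in DESeq2, -0.00086 with RLE size factors, -0.0027 with filterByExpr, -0.054 by library size alone, -0.0095 with no filter, -0.011 with only the 2 groups, -0.077 without both mice and -0.35 to 0.44 with each left out, and Nampt (0.34) was at -0.10 without both mice and -0.11 to 0.55 with each left out. In NAMPT LKO Fasting against WT Fed, Asns was at -0.42 to 0.37 with each left out. Between the genotypes, Atf5 was at 0.065 with the replicate block, 0.064 without it, 0.0011 with only the 2 groups, 0.024 in voomWithQualityWeights and -0.035 to 0.044 with each left out. Atf3 was at -0.026 by library size alone, -0.11 in the 6 libraries without the block and -0.36 to 1.01 with each left out. Ddit3 was at 0.087 in voomWithQualityWeights, 0.22 without both mice and -0.32 to 0.28 with each left out, and Asns at -0.34 to 0.15. Chac1 was at 0.13 with the replicate block, 0.13 without it, 0.0066 with only the 2 groups, 0.19 in voomWithQualityWeights, 0.35 without both mice and -0.20 to 0.31 with each left out. Sesn2 was at 0.077 with the block, 0.048 without it, 0.027 in voomWithQualityWeights and -0.32 to 0.063 with each left out. Ppp1r15a was at -0.00014 in DESeq2, -0.00019 with RLE size factors, -0.00080 with filterByExpr, -0.015 by library size alone, -0.0086 with no filter and -0.046 to 0.094 with each left out. The cause of these changes was not tested.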

Other observations

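Some targets of ATF4 outside the members were high in 1 WT Fasting liver. Gdf15, a stress-induced secreted factor, was at 14.4 CPM in WT Fasting mouse 3, against 2.35 and 2.91 CPM in the other WT Fasting livers, 4.73 and 4.75 CPM in WT Fed livers and 2.93 to 8.47 CPM in NAMPT LKO Fasting livers. Wars, a tRNA synthetase gene, was at 39.1 CPM in that same mouse, against 13.7 and 14.3 CPM in the other WT Fasting livers, 28.1 and 30.6 CPM in WT Fed livers and 10.3 to 13.4 CPM in NAMPT LKO Fasting livers. The serine synthesis gene Phgdh was instead high in WT Fasting mouse 2, at 4.46 CPM against 0.07 to 0.27 CPM in all other libraries. These genes were chosen after their values were seen, and groups of 3 were not tested for single high libraries.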
